A study of Mus musculus with 3 samples.

Results

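In ID8 cells, 201 of the 1709 groups of closely spaced CCCGGG sites on the autosomes were methylated at every site that could be measured. These groups are called methylated clusters here, and they made up 11.8% of the autosomal clusters. A cluster was a run of listed sites on chromosomes 1 to 19 with gaps of at most 500 bp and at least 3 covered sites, a covered site being one with at least 10 reads in each of the 3 libraries. A cluster was counted as methylated when each covered site had a level of 70% or more, the level being the methylated share of the reads averaged over the libraries. The clusters were thus chosen by the levels of their covered sites, and those levels are described below without a test. The 201 clusters held 675 covered sites of the 812 sites listed in them.

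ID8 is an ovarian cancer line that the labels place in strain C57BL/6, in females, and in the ovarian surface epithelium. The cells were cultured in RPMI medium with fetal bovine serum and gentamicin sulfate and received no treatment, so the study has 1 group and no control cells. The 3 libraries, called replicates 1, 2 and 3, are independent samples per the design text, but separate cultures are not stated, so SDs and p-values reflect how these libraries differ and that may be technical variation. Methylation was read by DREAM (digital restriction enzyme analysis of methylation), in which SmaI cuts only unmethylated CCCGGG and XmaI then cuts the methylated sites that remain, so that the fragment ends tell both states apart. The libraries held 7689526, 9190335 and 10361138 reads, of which 2.61%, 2.88% and 2.80% fell on covered sites of the methylated clusters. Normal ovarian epithelium was not measured.

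Cytosine methylation at CpG dinucleotides is copied at each cell division by the maintenance methyltransferase DNMT1 and is placed anew by DNMT3A and DNMT3B. Most CpG in mammalian genomes is methylated, while stretches dense in CpG, many of them at promoters, are usually kept free of methylation. Known exceptions are the methylated allele of imprinted control regions, promoters of germline genes, dense stretches inside transcribed genes, the inactive X chromosome and CpG islands that become methylated in cancer cells. A CCCGGG site holds 1 CpG, and a run of such sites marks a stretch rich in G and C. The site tables carry no gene names, and no annotation or genome on their build (mm9) was used here, so the clusters are identified by position and no gene is assigned to them.

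Methylated clusters were short and held few sites, as most autosomal clusters did. Their median length from the first to the last listed site was 572 bp (quartiles 408 and 758 bp), against 627 bp over all autosomal clusters and 639.5 bp for the 812 clusters with every covered site low (under 10%). The shortest, on chromosome 5 from 134697928 to 134698093, spanned 165 bp, and the longest, on chromosome 13 from 50907651 to 50909560, spanned 1909 bp. With 3 covered sites were 144 clusters (71.6%, against 63.4% of all autosomal clusters), with 4 sites 47, with 5 sites 7, with 6 sites 1 and with 7 sites 2. Clusters of 5 or more covered sites were 4.98% of the methylated clusters and 13.7% of all autosomal clusters. They were 12.6% of the clusters with every site low, 20.5% of those that held a low and a high site and 15.6% of the remaining ones. A rule that asks every site to be high is met more easily by clusters of few sites, so these counts are a description. Among clusters with exactly 3 listed sites, median length was close between the classes, at 488.5 bp for the 96 methylated ones and 499.0 bp for the 239 with every site low.

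Levels inside the methylated clusters were mostly far above the threshold. The mean over the 675 sites was 93.6%, 94.2% and 93.7% in replicates 1, 2 and 3 (93.8% ± 0.325, SD, n = 3), and the median site was at 97.4% ± 0.122. Of the sites, 227 (33.6%) lay at 99% or more, 284 from 90% to under 99%, 105 from 80% to under 90% and 59 from 70% to under 80%. The reads behind the lower sites were not much fewer, with a median of 715 summed reads in the lowest of these bands and 915 in the highest. No unmethylated read was counted in any library at 89 sites (13.2%), but these were read less, with a median of 216 summed reads against 1005 at the other sites. Cluster means ran from 73.0% to 100%, with a median of 95.2% and quartiles of 90.6% and 97.7%.

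**Figure D1:**
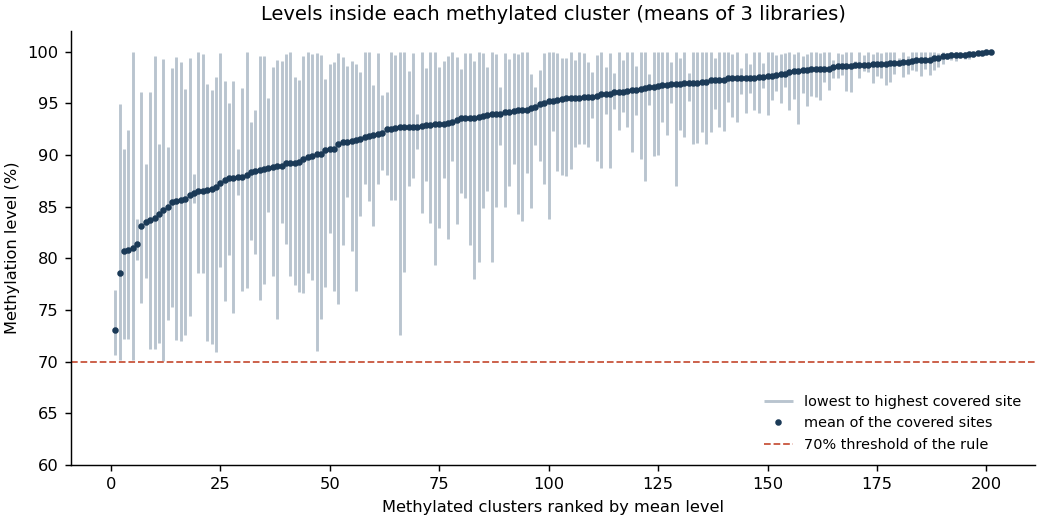
Methylation level in percent (y axis) of the 201 methylated clusters, ranked by their mean (x axis). Points are the means of the covered sites, bars span the lowest to the highest covered site, and the dashed line is the 70% threshold. Means climb from 73.0% to 100%, and the bars shorten toward the high end.

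Within a cluster the sites were seldom at 1 common level. The difference between the highest and the lowest covered site had a median of 10.1 percentage points (quartiles 3.94 and 17.7). It was under 5 points in 64 clusters (31.8%) and 20 points or more in 43 (21.4%), up to 29.8 points. In 93 clusters (46.3%) every covered site was at 90% or more, in 54 at 95% or more and in 11 at 99% or more. The lowest site lay at an end in some clusters and inside in others, which is a description with no test. Among the 57 clusters with 4 or more covered sites the lowest site was the first or last one in 26, where 27.2 would be reached if every position held it equally often. End sites of these clusters averaged 94.2% ± 0.392 and inner sites 93.3% ± 0.522 (SD, n = 3), a difference of 0.862 ± 0.269 points with the end sites higher in each library.

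The threshold falls in a continuous range of levels. By the lowest covered site, 22 autosomal clusters lay from 65% to under 70% and 22 from 70% to under 75%. Just inside were a cluster of chromosome 8 from 123651984 to 123652484, whose lowest site was at 70.01%, and clusters starting at 46052442 on chromosome 4 (lowest site 70.2%), 99124862 on chromosome 13 (70.2%), 61498157 on chromosome 11 (70.7%) and 37365192 on chromosome 5 (71.0%). Just outside were clusters starting at 134479146 on chromosome 1 (69.97%), 39821551 on chromosome 6 (69.6%), 28784818 on chromosome 5 (69.5%), and 54398176 and 96902165 on chromosome 13 (69.3% and 68.7%). With the adjusted percent that the authors deposited, which raises the odds of methylation by 1 factor per library, 256 clusters met the rule. They included all 201, and the 55 added ones had their lowest site between 56.0% and 69.97% by the counts. The adjusted mean over the 675 sites was 96.4% ± 0.265 (SD, n = 3).

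The clusters with the most covered sites show how even or uneven the methylation of a stretch could be. On chromosome 4, from 154009761 to 154011203, 7 covered sites over 1442 bp lay between 95.7% and 100%, with a cluster mean of 98.3%, 98.0% and 98.7% in replicates 1, 2 and 3. The next covered site, 503 bp beyond its last one, was at 97.2% ± 0.591 (SD, n = 3), so high methylation went on past the cluster. On chromosome 3, from 94976346 to 94977511, 7 sites over 1165 bp lay between 97.5% and 99.9%, with means of 98.5%, 98.9% and 98.3%. The last site there rested on 51 summed reads and was at 94.7% in replicate 3 and 100% in the others. On chromosome 2, from 179177225 to 179178302, 5 sites lay between 97.7% and 100%, with means of 98.7%, 99.02% and 98.8%. These 3 clusters were close to full methylation at each covered site and in each library.

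Other clusters with many sites varied along their length. On chromosome 19, from 45305663 to 45306522, the site 367 bp from the start was at 99.7% ± 0.154 while those at 68 and 285 bp were at 87.1% ± 0.803 and 86.5% ± 0.791. The last site of this cluster, at 859 bp, was at 71.1%, 76.4% and 75.02% in replicates 1, 2 and 3. The next covered site, 1331 bp beyond it and part of a neighbouring cluster, was at 99.9% ± 0.0161, and that neighbouring cluster averaged 87.7% ± 0.818 with its lowest site at 63.7%. On chromosome 15, from 95358277 to 95359075, 5 sites went from 83.4% ± 2.87 at the start to 96.3% ± 0.740 at 301 bp and 71.7% ± 0.937 at 798 bp. The covered site 531 bp before that cluster was at 99.1% ± 1.09. On chromosome 6, from 24905691 to 24906455, the cluster mean was 88.8%, 91.1% and 86.0% in the 3 libraries, and its lowest site was at 77.5% ± 7.88 with only 51 summed reads. The remaining clusters of the 10 with the most covered sites were on chromosomes 2 (start 74493365, mean 96.8% ± 0.189), 5 (106887262, 95.9% ± 1.38), 11 (68213107, 93.6% ± 0.715) and 8 (92871321, 96.9% ± 0.220).

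**Figure D2:**
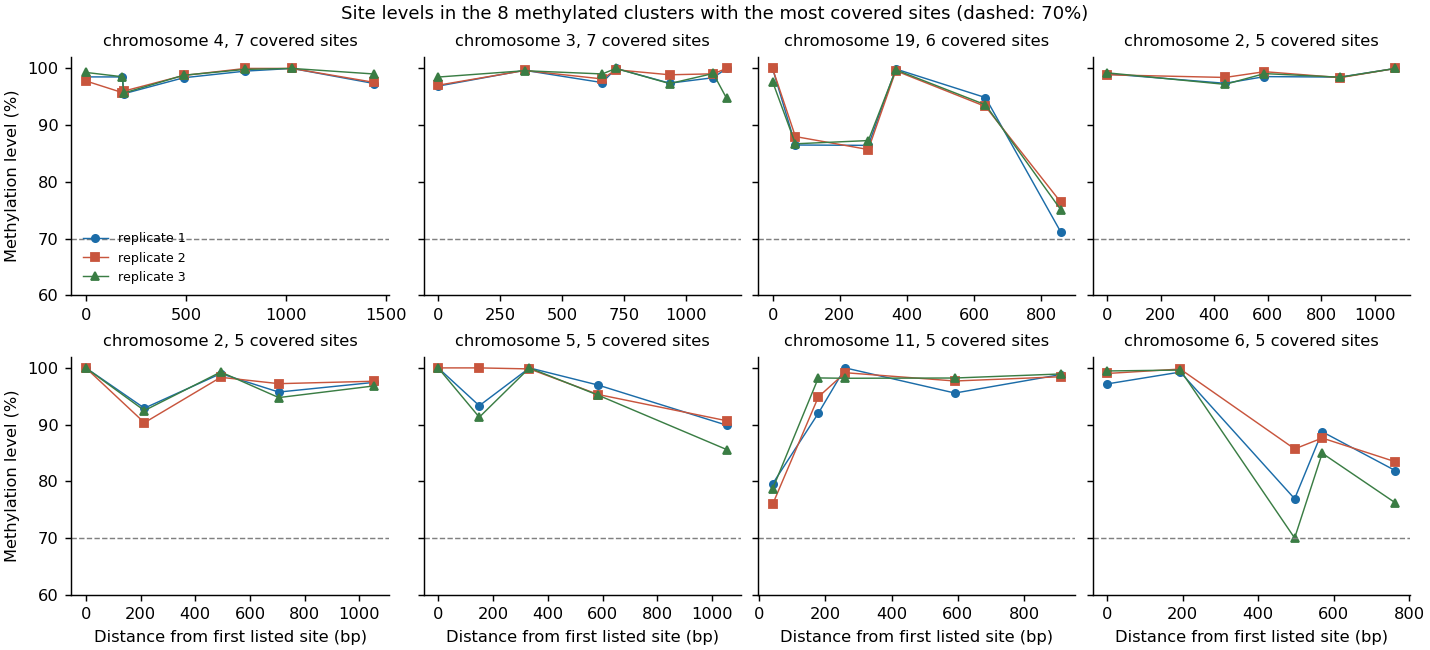
Methylation level in percent (y axis) of each covered site against its distance in bp from the first listed site (x axis), in the 8 methylated clusters with the most covered sites. Each line joins the sites of 1 library and the dashed line is 70%. The lines stay near 100% in the clusters of chromosomes 3 and 4 and drop to a mean of 74.2% at the last site on chromosome 19, and they part most at the site of chromosome 6 that has 51 summed reads.

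At the top of the range, no unmethylated read was counted at any covered site of 2 clusters, on chromosome 14 from 56762966 to 56763585 (3 sites, 1114 reads) and on chromosome 11 from 87430711 to 87431128 (4 sites, 987 reads). Counts of 0 allow an unmethylated share of up to 0.269% and 0.304%, by counting error only. Read more deeply was a cluster of chromosome 8 from 124829972 to 124830696, at 99.9% ± 0.0210 (SD, n = 3) over 5210 reads. On chromosome 4 the cluster from 46357434 to 46357635 was at 99.9% ± 0.138 over 681 reads. At the other end, the cluster of chromosome 11 from 61498157 to 61498472 was at 72.9%, 75.7% and 70.5% in replicates 1, 2 and 3, with its 3 sites between 70.7% and 77.0%. It is the lowest mean of the 201, and all its sites were alike at this lower level. The next lowest means were 78.6% ± 0.550 on chromosome 4 (start 46052442), 80.7% ± 5.34 on chromosome 4 (126210188), 80.8% ± 2.596 on chromosome 2 (152897537) and 81.0% ± 0.696 on chromosome 13 (99124862). In the last of these, 2 sites lay at 72.9% and 70.2% and the third, with 48 summed reads, at 100%. Where at least 20 reads are required per library, the clusters starting at 56762966, 46357434 and 99124862 keep only 2 covered sites and are no longer counted.

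The libraries were also compared with each other, within the room that a high mean leaves. For each pair of libraries a two-sided Fisher's exact test was made at every site, with Benjamini-Hochberg adjustment over all 24112 covered sites of the series. A site was called at an adjusted p under 0.05 with a difference of at least 20 percentage points. At 453 of the 675 sites (67.1%) the mean over the libraries was too high for 2 of them to differ by that much, so the rule that chose the clusters fixed the outcome there. No site of the methylated clusters was called in any pair, where 0.00415%, 0.00415% and 0% of all covered sites were called between replicates 1 and 2, 1 and 3, and 2 and 3. At an unadjusted p under 0.05 there were 34, 29 and 28 of the 675 sites (5.04%, 4.30% and 4.15%), against 3.02%, 3% and 2.84% of all covered sites. The chi-square per degree of freedom, which is 1 with counting error alone, averaged 1.39, 1.41 and 1.34 over the sites of the methylated clusters that had large enough counts, and 1.40, 1.37 and 1.30 over all such sites of the series.

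One site was called once no minimum difference was asked, where 0.0415%, 0.0373% and 0.0249% of all covered sites were called in the same 3 pairs. It lies on chromosome 13 at 93196513, in the cluster starting at 93196371. Replicate 1 had 189 methylated reads of 241 (78.4%, Clopper-Pearson 95% bounds 72.7% and 83.4%), replicate 2 had 419 of 491 (85.3%, 81.9% and 88.3%) and replicate 3 had 509 of 561 (90.7%, 88.0% and 93.0%). Between replicates 1 and 3 the difference was 12.3 points, with an adjusted exact p of 0.0229. The call needs replicates 1 and 3, and it was lost with a chi-square test divided by the excess spread and no minimum difference, a setting chosen after seeing the data, where its adjusted p was 0.299. The other 3 covered sites of that cluster were at 97.7%, 97.9% and 97.8% and the called site at 84.8%, so it was also the lowest of its cluster.

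The SD of the cluster mean over libraries was under 1 point in 126 of the 201 clusters (62.7%). Its median was 0.756 points, against 0.349 points for the other autosomal clusters, most of which have every covered site low. By class it was 0.109 points for clusters with every site low, 0.921 for those with a low and a high site and 1.37 for the remaining ones. Levels near 0% or 100% leave little room for spread. Of the 675 sites, 652 (96.6%) were at 70% or more in each library, and 9, 1 and 13 fell below it in replicates 1, 2 and 3. The largest SD was 6.99 points on chromosome 11 from 43431160 to 43431763, where the mean was 87.1%, 90.6% and 77.1%. Its last site, with 33 summed reads, was at 100% in replicates 1 and 2 and at 70% in replicate 3. With at least 20 reads required per library that cluster falls under 3 covered sites. The next largest SDs were 5.34 points on chromosome 4 (start 126210188, 348 summed reads), 4.69 on chromosome 4 (109654411), 4.67 in a cluster of chromosome 18 and 4.43 on chromosome 11 (4646484). Clusters with a large SD thus included sites with few reads, and the 5 clusters held between 348 and 2287 summed reads against a median of 3296 over the 201.

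Covered sites of the methylated clusters were read less than those of clusters with every site low, as were those of the other classes. A covered site had a median of 228, 322 and 336 reads in replicates 1, 2 and 3, against 325.5, 426.0 and 482.5 in clusters with every site low, a ratio of 0.718 ± 0.0332 (SD, n = 3). The same ratio was 0.769 ± 0.0157 for clusters with a low and a high site and 0.871 ± 0.0152 for the remaining ones. The methylated clusters made up 11.8% of the autosomal clusters but held 7.71% ± 0.219 of their reads. A single cluster of another class held 767908 reads. Depth also varied with the distance to the nearest listed site. In methylated clusters the median was 251 summed reads where that distance was 1 to 50 bp, 530.5 where it was 51 to 100 bp, 314 where it was 101 to 150 bp and 1659 where it was 201 to 300 bp. At equal spacing the ratio to the clusters with every site low was 0.377 ± 0.0275 at 1 to 50 bp, 0.729 ± 0.0543 at 51 to 100 bp, 0.857 ± 0.0247 for those of 151 to 200 bp, 0.768 ± 0.0303 for those of 201 to 300 bp and 0.708 ± 0.0253 for sites 301 to 500 bp away, where clusters with a low and a high site were lower still at 0.629 ± 0.0279. At 101 to 150 bp it was 1.30 ± 0.0977, so the lower depth was not found at each spacing. By summed reads the deepest clusters were on chromosome 19 (start 25580404, 17204 reads, and 45305663, 13953 reads), 15 (101061929, 12681), 2 (118502640, 11068) and 4 (154009761, 10415). The shallowest had 241 reads, on chromosome 1 from 191167506 to 191167760.

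**Figure D3:**
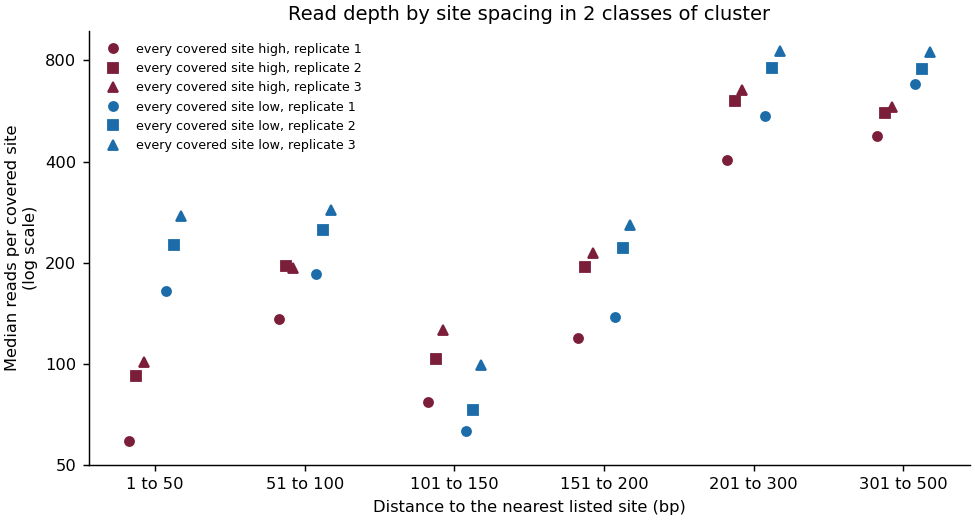
Median reads per covered site (y axis, log scale) by the distance to the nearest listed site in bp (x axis), for methylated clusters and clusters with every covered site low, 1 point per library. Methylated clusters lie lower in each spacing class but 101 to 150 bp, where they lie higher in all 3 libraries.

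Sites that were listed inside the methylated clusters but read too little to count as covered gave a measure that the rule had not used. There were 137 such sites in 71 clusters, and they lay close to another site, with a median of 62 bp to the nearest listed one against 150 bp for the covered sites. At 116 of them at least 1 read was counted, 1432 reads in all. Their reads were methylated in 82.4%, 86.2% and 81.2% in replicates 1, 2 and 3 (83.2% ± 2.6, SD, n = 3), below the 93.8% of the covered sites. The same measure was 9.72% ± 0.569 in clusters with every covered site low, where covered sites averaged 0.399%. Sparsely read sites thus lay nearer the middle in both classes. Both classes were set by the levels of covered sites alone, which favours a gap in this direction, and other causes were not tested. Against all other autosomal clusters, at 27.9% ± 0.883, the difference was 55.3 ± 1.86 points, with the methylated clusters higher in 3 of 3 libraries. Flipping the signs of the 3 differences exactly gave a two-sided p of 0.25, below which 3 libraries cannot go.

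Of the 95 sparsely read sites with at least 3 summed reads, 70 were at 70% or more, 16 between 10% and 70% and 9 below 10%. The 25 sites under 70% lay in 19 clusters, so for those the methylation of all listed sites is not shown by these counts. Most of them had very few reads, but some had more. At position 127722149 of chromosome 5 none of 21 reads was methylated, which allows a methylated share of up to 14.3%. On chromosome 11 at 4647279, 9 of 32 reads were methylated, and on chromosome 13 at 50908053, 15 of 30. These sites were picked after their values were seen and are not the only ones with more reads. The longest cluster, on chromosome 13 from 50907651, had 16 listed sites of which only 3 were covered, at 90.1% ± 3.92, 91.1% ± 0.590 and 71.7% ± 5.47 (SD, n = 3). Its 13 other sites held 137 reads, 69.3% of them methylated, and 5 of the 8 with at least 3 reads were under 70%. A second cluster of chromosome 13, from 70020888 to 70022139, had 3 covered sites at 86.1% to 90.6% among 12 listed, and the 9 others held 3 reads in all. In the cluster at 92871321 on chromosome 8 the 4 sparsely read sites held 65 reads, of which 98.5% were methylated. Every listed site was covered in 130 of the 201 clusters.

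Covered sites just outside the methylated clusters were more often methylated than those outside the other classes. Of the nearest ones within 5 kb, 56.6% were at 70% or more, against 44.4% around clusters with a low and a high site. The share was 33.6% around all other autosomal clusters and 38.9% over all covered autosomal sites. The nearest covered site within 5 kb of an end was found for 70 of the 201 clusters, 76 sites in all, at a median distance of 836 bp. These sites averaged 61.2%, 62.9% and 62.3% in replicates 1, 2 and 3 (62.1% ± 0.864, SD, n = 3), and 43 were at 70% or more, 17 between 10% and 70% and 16 below 10%. Around clusters with every covered site low the same measure was 26.2% ± 0.123 over 227 sites, and around those with a low and a high site 52.9% ± 0.503 over 108. Against all other autosomal clusters, at 39.1% ± 0.350, the difference was 23.0 ± 0.540 points, higher in 3 of 3 libraries (exact sign-flip p = 0.25, two-sided, the smallest possible). Of the 76 sites, 13 lay in another cluster and 4 in another methylated cluster, whose levels the rule did use. Without sites in any cluster, a setting chosen after seeing the data, the difference was 21.4 points. With clusters joined over gaps of up to 1000 bp it was -7.56 points; 256 clusters then met the rule, 179 of them shared, and the cause was not tested.

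The difference in the surroundings was short in range. Sites 500 to 1000 bp outside the methylated clusters averaged 64.7% ± 1.39 (SD, n = 3) and those at 1 to 2 kb 65.5% ± 0.314, against 13.6% ± 0.167 and 14.1% ± 0.175 outside the clusters with every site low. From 2 to 5 kb the order was turned, with 47.9% ± 0.2503 over 65 sites outside the methylated clusters and 58.2% ± 0.259 over 119 outside the low ones. From 5 to 20 kb the values were 47.6% ± 0.539 and 53.4% ± 0.161, and from 20 to 100 kb 45.1% ± 0.172 and 47.1% ± 0.248. The median reads of the sites in these bins ran from 350.5 to 941 outside the methylated clusters and from 341 to 770 outside the low ones. How much sites differ within a bin is not part of these SDs. Of the 19 low clusters with another cluster within 2 kb, 18 had a nearest cluster with every site low. The classes of such neighbours were set by their own levels, and what their sites add to these means was not tested.

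**Figure D4:**
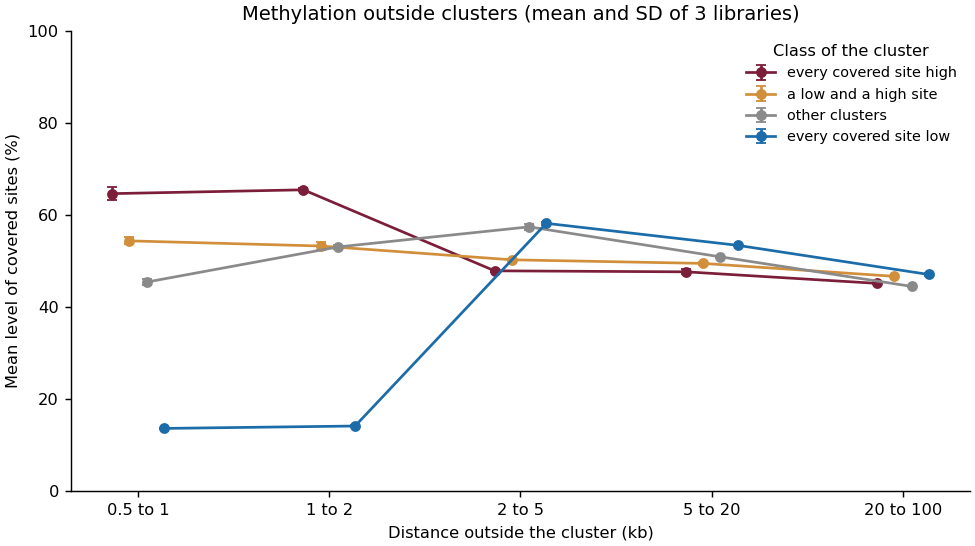
Mean methylation level in percent (y axis) of covered sites by their distance in kb outside autosomal clusters (x axis), by the class of the cluster. Points are means and error bars SDs of 3 libraries. Sites within 2 kb lie near 65% outside methylated clusters and near 14% outside clusters with every covered site low, and from 2 kb on the classes lie between 44.5% and 58.2%.

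Some methylated clusters stood beside unmethylated sites, 16 of the 76 flanking sites being below 10%. The largest steps were on chromosome 8, where the cluster from 86525436 to 86525672 was at 98.7% ± 0.633 and the covered site 2922 bp before it at 0.217% ± 0.133 (SD, n = 3). On chromosome 11, the cluster from 29924602 to 29924903 was at 99.2% ± 0.209 and the site 824 bp beyond it at 1.28% ± 0.832. On chromosome 7, the cluster from 108470322 to 108470867 was at 98.7% ± 0.492, and 532 bp before it a site was at 1.62% ± 1.59. On chromosome 17 (start 46395684) and chromosome 10 (start 80049403) the clusters were at 99.6% ± 0.0526 and 97.5% ± 0.152, with sites at 1.66% ± 0.593 and 0% at distances of 4454 and 2696 bp, the 0 being of 1348 reads and allowing up to 0.223%. Each of these flanking sites was at 3.45% or less in all 3 libraries. The clusters were chosen by the size of this step in the mean over libraries. Means this extreme leave the libraries little room to differ, so their likeness is a description only.

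The nearest other cluster of a methylated cluster was most often an unmethylated one. It had every covered site low for 84 of the 201 (41.8%), was itself methylated for 32 (15.9%), held a low and a high site for 34 (16.9%) and belonged to the remaining clusters for 51 (25.4%). Over all autosomal clusters the nearest one was methylated for 11.8% and had every site low for 46.8%, so these shares were near those of all clusters. With at least 50 reads per site and library, 8 of 116 methylated clusters (6.90%) had a methylated neighbour, under the 10.3% that were methylated. The median distance to the nearest cluster was 301104 bp, against 267374 bp over all autosomal clusters. Another cluster lay within 5 kb of 15 methylated clusters, and of those neighbours 4 were methylated, 3 held a low and a high site, 8 were of the remaining kind and none had every site low. Over all 90 autosomal clusters with another within 5 kb, the neighbour was methylated for 15 and had every site low for 22, of which 18 were neighbours of clusters that had every site low themselves. A neighbour with every site low was also rare beside the clusters with a low and a high site (1 of 17) and the remaining ones (3 of 37). Clusters that are nearest to each other are counted from both sides. The 4 methylated neighbours within 5 kb are thus a pair on chromosome 9 and a pair on chromosome 11. No test was made of these counts over clusters.

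Methylated clusters lay within 100 kb of each other in 5 pairs. On chromosome 11, the clusters from 74978431 to 74978839 and from 74979941 to 74980725 were 1102 bp apart, at 95.5% ± 1.25 and 98.7% ± 0.0821 (SD, n = 3), and the covered site 888 bp beyond the second was at 100% in each library. On chromosome 9, clusters starting at 58044189 and 58046953 were 2251 bp apart, at 91.7% ± 1.40 and 90.6% ± 0.787. On chromosome 2, clusters from 74493365 to 74494419 and from 74520897 to 74521361 were 26478 bp apart, at 96.8% ± 0.189 and 92.7% ± 2.02, but the 2 covered sites between them were at 3.70% and 4.37%. On chromosome 15 the pair starting at 87374549 and 87454502 had 1 covered site between, at 97.0%, and on chromosome 11 the pair starting at 116094115 and 116191257 had 2, at 92.6% and 97.0%. So 3 of the 5 pairs had covered sites between them, high in 2 and low in 1. The site between the pair of chromosome 15 lay 675 bp beyond the first cluster and had 51 summed reads (SD 5.25 points). The site at 3.70% on chromosome 2 had 68 summed reads and was at 11.1%, 0% and 0% in replicates 1, 2 and 3. So few sites do not show the state of the whole gaps.

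By chromosome, the share of clusters that were methylated ran from 6.25% to 22.7%. It was highest on chromosome 18 (10 of 44 clusters, exact Clopper-Pearson 95% interval 11.5% to 37.8%), chromosome 13 (13 of 70, 18.6%, 10.3% to 29.7%) and chromosome 8 (16 of 93, 17.2%, 10.2% to 26.4%). It was lowest on chromosome 16 (3 of 48, 6.25%, 1.31% to 17.2%), chromosome 10 (6 of 91, 6.59%) and chromosome 17 (6 of 88, 6.82%). These intervals treat clusters as independent, although clusters are not replicates, so they are a description and not a test. The intervals of 18 of the 19 autosomes held the share over the other autosomes. That of chromosome 18 began at 11.4734%, just above the 11.4715% of the others (191 of 1665), and it is not adjusted for the 19 chromosomes looked at. Chromosome 18 ranked first in the main count and in 7 of its 8 alternatives, and second with the adjusted percent. The low ranks were less stable. With at least 50 reads per site and library, chromosome 16 was at 10.3% and chromosome 14 was lowest at 4.65%. With gaps of up to 1000 bp chromosome 10 was at 11.8%, against 11.5% of all clusters. By number chromosome 11 led with 25 (12.4% of the 201), and it also had the most clusters, 150. In the last 10 Mb of listed sites of their chromosome lay 30 of the methylated clusters (14.9%), against 11% of all autosomal clusters. Of the 30, 6 were on chromosome 11, which also held 26 of the 188 autosomal clusters of any class in these windows. On the X chromosome 2 of 35 clusters met the same rule (5.71%, exact interval 0.700% to 19.2%), with means of 97.7% ± 1.41 and 97.8% ± 0.791 (SD, n = 3).

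**Figure D5:**
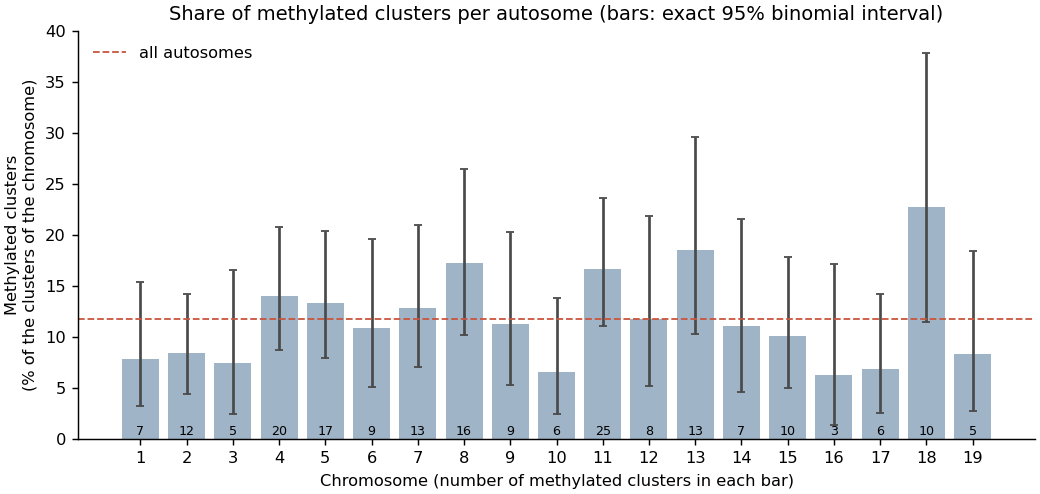
Share of the clusters of each autosome that were methylated, in percent (y axis, bars from 0), by chromosome (x axis), with exact 95% binomial intervals as error bars and the number of methylated clusters in each bar. The dashed line is the share of 11.8% over all autosomes, chromosome shown included, and every interval crosses it.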

How the data were processed

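The authors deposited, per library, whole-number counts of methylated, unmethylated and total reads at each listed CCCGGG site, not normalized, with a raw and an adjusted percent per site. The submitters' processing notes name Bowtie2 and SAMtools and the builds mm9 and rn4; per the file headers the sites are on mm9, and positions are given as deposited. No source used here gives tool versions, the origin of the adjustment or any collapsing of read copies. Reported intervals cover counting error only. Levels, runs of sites and cluster values were computed from the counts with Python 3.11.15, pandas 2.3.3 and scipy 1.17.1, and the pairwise test was checked on simulated data. Alternatives varied the read minimum, gap, threshold, percent column and libraries. The methylated clusters and the lists of named clusters were chosen with earlier results of these data known. Named clusters were those at the extremes of site number, length, reads, level, SD, step to the flanks and distance to the threshold or to each other; the shortest, the shallowest and those with the most listed sites were added after their values were seen. The positions of some clusters on chromosome 18 are not reported here. The table of summed libraries was not used.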

Additional observations from a re-analysis of the deposited data

How the results depend on the processing

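Of the 201 methylated clusters, 197, 196 and 199 were found again without replicate 1, 2 or 3, and the counts were 202 to 206. The number was 116 with at least 50 reads, 99 with gaps of at most 250 bp and 57 with at least 4 covered sites; asking that every listed site be covered, an alternative chosen after seeing the data, left 130. It was 151 to 256 under the other alternatives, of which 1 (no sparsely read site under 70%, 182 clusters) was also chosen after seeing the data. The share of cluster reads was 7.44% and 7.14% with at least 20 and 50 reads, 8.16% with gaps of at most 250 bp and 10.1% with the adjusted percent, and 7.59% to 7.79% leaving out 1 library. The share with a methylated nearest cluster was 6.90% with at least 50 reads. The difference at flanking sites was -7.56 points with gaps of up to 1000 bp (the cause was not tested), 21.3 to 22.5 points leaving out 1 library and 19.4 to 44.6 points otherwise. The difference at sparsely read sites stayed between 45.2 and 62.8 points. With no minimum difference Fisher's exact test called 1 site between libraries, and the chi-square test divided by the excess spread, added after seeing the data, called 0. The other alternatives also called 0, with the minimum of 20 points that most of these levels cannot reach. No paired analysis was possible because there is 1 group.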
